A study of Mus musculus with 6 samples.

Results

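The genes of the centromere, the kinetochore and the spindle checkpoint were followed in T-cell acute lymphoblastic leukaemia (T-ALL) of mice. The list named 42 genes by function, with earlier results of these data known, and 41 of them were measured among 18193 genes on the arrays. Hjurp, the chaperone that delivers CENP-A, was not analysed here, since each of its probe sets carries more than 1 gene symbol. The leukaemias were driven by Notch1[delta]E, an activated NOTCH1 receptor, and all carry the mycGFP genotype, a GFP reporter of c-Myc. The labels give the strain C57BL/6 and an age of 12 weeks, and the splenocytes were taken from congenic recipients 4 weeks after transplantation. Cells carrying Notch1-deltaE and CD25 were sorted by mCherry and GFP into MycGFP positive cells (3 arrays) and MycGFP negative cells (3 arrays), both from leukaemic mice, with no normal T cells among the arrays. The design speaks of 3 leukaemias that were derived independently, and the arrays of each group are numbered 1 to 3. The labels do not give the number of transplanted mice behind an array. The comparison asks how leukaemia cells with a c-Myc reporter signal differ from leukaemia cells without it.

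The kinetochore is the protein machine that joins a chromosome to the spindle. Nucleosomes with the histone variant CENP-A mark the centromere, a constitutive network (CCAN) sits on them through the cell cycle, and the KMN network assembled on it in mitosis holds the microtubules. The spindle checkpoint is a signal made at kinetochores without microtubules, and it delays anaphase until all are attached. Many of these genes are transcribed mainly in late S phase, G2 and mitosis, so in a bulk sample their level can follow the share of dividing cells. Fewer cells in G2 and mitosis cannot be told apart here from less RNA of these genes in each cell.

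Of the 41 genes, 40 had a higher mean log2 intensity in MycGFP positive cells, and 9 rose (two-sided limma test, threshold 0.05 after adjustment over all genes), where 4.62% of all genes did. With limma none of the 41 was called lower, against 1.51% of all genes, and before adjustment none passed 0.05 as lower, against 7.35%. Before adjustment 34 passed 0.05 as higher, against 14.7% of all genes. The median log2 difference of the 41 genes was 1.98, a 3.94-fold higher level, beside 0.01 over all genes. The 9 that rose were the inner kinetochore genes Cenph, Cenpi and Cenpo, the microtubule tracking gene Ska1, the dynein recruitment genes Zwilch, Kntc1 and Spdl1, and the checkpoint genes Ttk and Trip13. For 33 genes all 3 positive arrays lay above all 3 negative arrays, against 17% of all genes. In the 8 others the groups overlapped. With the array number as a block, which compares arrays of the same number, 25 of the 41 rose, against 5.75% of all genes, and these included the 9.

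The calls depended on single arrays. Without negative array 1, 30 of the 41 rose (limma, adjusted p under 0.05), against 4.74% of all genes. Without positive array 1, positive array 2, positive array 3 or negative array 2, none of the 41 was called, against 0.956%, 0%, 0.572% and 0.72% of all genes. Without negative array 3, Cenph, Cenpo, Kntc1 and Ttk alone rose, against 3.22% of all genes. Without both arrays of number 1 the count was 21, against 1.7% of all genes, and without those of number 2 or of number 3 it was 0, as it was over all genes. The 21 held 5 of the 9. Without positive array 2 no gene on the arrays was called, but before adjustment 29 of the 41 passed 0.05 as higher, against 12.1% of all genes, and the lowest adjusted p among them was 0.0806. With every array kept, 11 rose where all probe sets of a gene were averaged (5.59% of all genes), 9 without probe sets that cross-hybridise (4.8%), 7 after median centring (2.76%), 8 with an offset of 16 (4.38%), 9 with a trended and robust variance (3.86%), 15 with array weights (5.88%) and 19 among genes above the median level (11.2%).

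**Figure D1:**
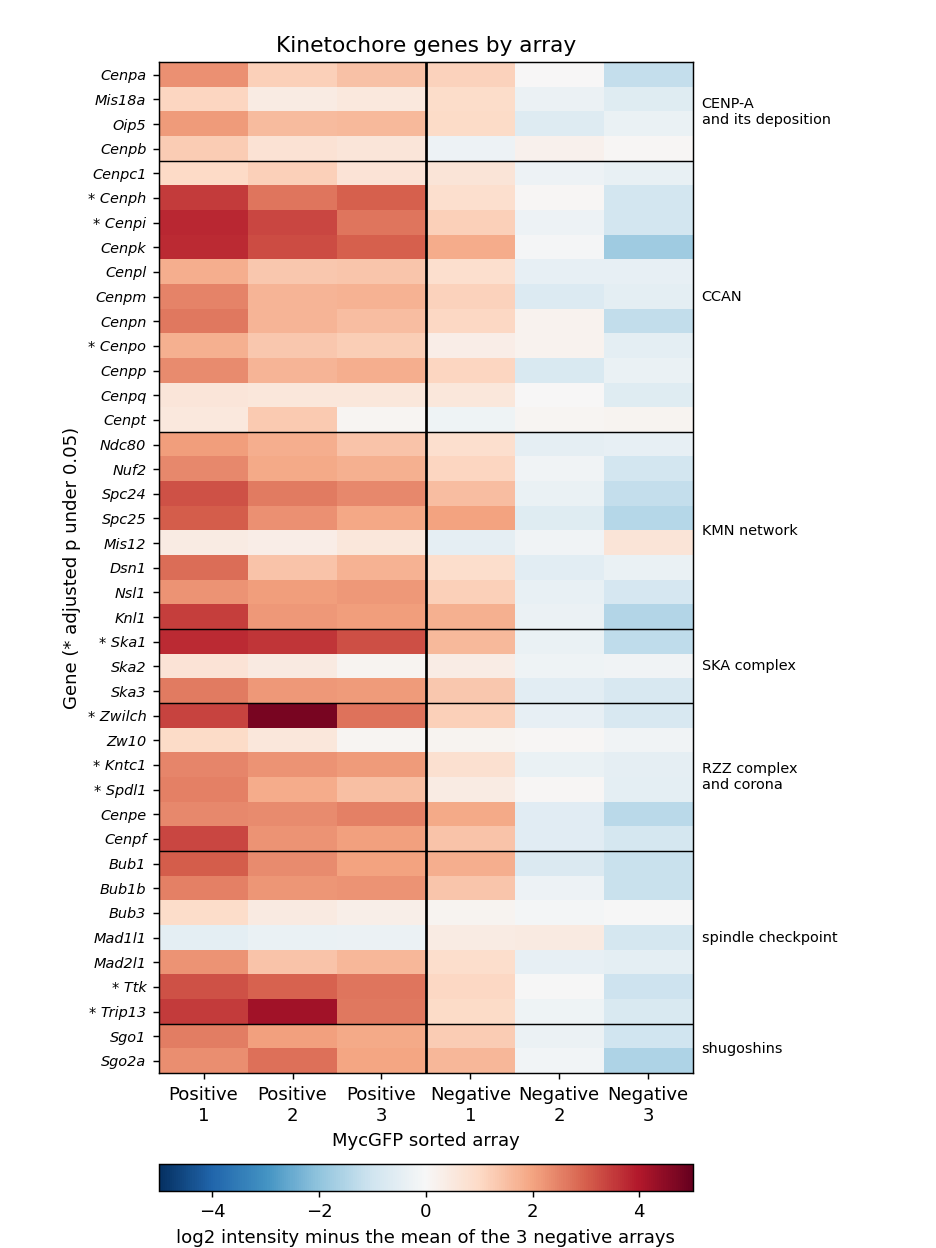
Log2 intensity of each of the 41 genes (rows, by complex) on the 3 MycGFP positive arrays (left) and the 3 MycGFP negative arrays (right), minus the mean of the negative arrays; asterisks mark the 9 genes that passed the test. Negative array 1 was the highest negative array for 37 of the 41 genes and lay nearest to the positive arrays.

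Sequence before the transcription start was examined for 37 of the 41 genes, those with an entry in the RefSeq promoter table of GRCm38.p6. Each window ran from 250 bases before to 50 bases after the start, and 4 short motifs were searched on both strands. They were CACGTG, the E-box bound by MYC with MAX; TTTGAA, the CHR of genes expressed in G2 and mitosis; CCAAT, bound by NF-Y; and GCGGGAA, a core of E2F sites. The E2F core was in the windows of 12 of the 37 genes (32.4%), against 6.84% of 17492 protein-coding genes. The CHR letters were in 15 (40.5%), against 18.5%, and CCAAT was in 23 (62.2%), against 42.3%. The E-box letters were in 3 (8.11%), against 8.91%. A gene with several windows was counted once, and a match is a string of letters that was not tested as a binding site. The 150 bases before the start are printed for 3 genes that rose and hold motifs there (Kntc1, Spdl1, Ttk). They are also printed for Trip13, which rose and holds none. Cenph, Cenpi and Cenpo also rose and hold none there, and they are not printed. Zwilch and Ska1, which rose, had no entry. Also printed are Cenpl and Sgo1, which rose with the block and without negative array 1, and Mis12, whose groups overlapped. The E-box letters lie in these 150 bases in 2 of the 37 genes, Ttk and Sgo1 (5.41%), against 5.45% of protein-coding genes. Capitals mark the motif letters, on either strand.
Kntc1: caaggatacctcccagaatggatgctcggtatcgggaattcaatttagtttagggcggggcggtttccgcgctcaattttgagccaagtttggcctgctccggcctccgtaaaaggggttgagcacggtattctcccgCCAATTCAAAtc
Spdl1: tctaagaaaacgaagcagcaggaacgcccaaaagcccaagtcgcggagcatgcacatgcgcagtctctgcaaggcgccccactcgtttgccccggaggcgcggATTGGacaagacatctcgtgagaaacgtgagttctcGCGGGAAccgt
Ttk: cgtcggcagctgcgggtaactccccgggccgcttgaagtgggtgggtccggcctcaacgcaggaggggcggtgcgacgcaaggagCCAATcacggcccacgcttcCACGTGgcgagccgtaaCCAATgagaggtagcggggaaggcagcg
Trip13: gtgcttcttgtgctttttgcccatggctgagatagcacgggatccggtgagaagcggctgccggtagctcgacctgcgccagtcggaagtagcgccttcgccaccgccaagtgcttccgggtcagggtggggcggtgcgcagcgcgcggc
Cenpl: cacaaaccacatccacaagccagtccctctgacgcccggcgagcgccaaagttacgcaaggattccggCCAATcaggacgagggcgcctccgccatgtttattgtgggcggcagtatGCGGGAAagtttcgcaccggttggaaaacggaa
Sgo1: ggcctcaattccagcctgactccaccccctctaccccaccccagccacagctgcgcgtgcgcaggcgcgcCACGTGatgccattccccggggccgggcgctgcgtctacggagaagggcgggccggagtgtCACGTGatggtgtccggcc
Mis12: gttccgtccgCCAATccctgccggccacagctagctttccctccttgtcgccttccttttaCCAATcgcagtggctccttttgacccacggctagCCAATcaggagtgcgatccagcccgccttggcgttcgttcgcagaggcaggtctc
These stretches lie at chr5:123749576-123749725 on the plus strand (Kntc1), chr11:34833642-34833791 on the minus strand (Spdl1), chr9:83834539-83834688 on the plus strand (Ttk), chr13:73937768-73937917 on the minus strand (Trip13), chr1:161070617-161070766 on the plus strand (Cenpl), chr17:53689316-53689465 on the minus strand (Sgo1) and chr11:71019461-71019610 on the plus strand (Mis12), each read 5′ to 3′ toward the gene. Kntc1 has CCAAT 12 bases before the start, and it shares its last letter with a CHR on the opposite strand. Spdl1 has CCAAT on the opposite strand and an E2F core 11 bases before the start. Ttk has CCAAT on both sides of an E-box that begins 45 bases before the start, and Sgo1 has an E-box 80 and another 19 bases before it. Cenpl holds CCAAT and, 33 bases before the start, an E2F core. Mis12 holds CCAAT at 3 places and none of the others. In these 150 bases CCAAT was found in 18 of the 37 genes (48.6%), against 30.0% of protein-coding genes. Of these 18 only Kntc1, Spdl1 and Ttk passed the test, and carriers that did not pass include Cenpl, Cenpq and Ska2.

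Among the genes of CENP-A and its deposition none of the 4 measured passed the test, where 4.62% of all genes rose. Their median log2 difference was 1.25. Cenpa, the centromeric histone itself, ranged from 1249.8 to 2719 on positive and 245 to 1238 on negative arrays (intensity, linear scale), a log2 difference of 1.64 with an SE of 0.62 (adjusted p = 0.191). A second, dimmer probe set of Cenpa differed by 3.45 (adjusted p = 0.0381 among named probe sets), and the third by 1.04. The second is of the kind that may cross-hybridise, and its negative arrays 2 and 3 lay below the array medians. The groups of Cenpa did not overlap, but by little: its lowest positive array lay next to negative array 1. Oip5, the Mis18 subunit also called MIS18-beta, ranged from 384 to 562 on positive and 82.02 to 248 on negative arrays and differed by 1.79 (adjusted p = 0.0693, and 0.0333 with the block). Mis18a, its partner in licensing new CENP-A, had intensities of 1635, 1054 and 1130.4 on positive arrays 1 to 3, against 1491, 633 and 509.9 on negative arrays 1 to 3. These groups overlapped through negative array 1, and the log2 difference was 0.67 with a 95% interval of -0.36 to 1.71. Cenpb, which binds a box in satellite DNA, differed by 0.86 (adjusted p = 0.0875) with positive arrays at 75.1 to 121 and negative arrays at 41.5 to 57.2. In Cenpb negative array 1 was the lowest, unlike in most of the genes. A second Cenpb probe set, below the array median on every array, differed by 0.01 (adjusted p = 0.981 among named probe sets).

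The CCAN held 3 of the 9 genes that rose, and 8 of its 11 rose with the block. Of all genes 4.62% rose, and 5.75% with the block. CENP-H, CENP-I, CENP-K and CENP-M form a subcomplex at its centre. Cenph (probe set 1422016_a_at) had intensities of 1152, 653 and 818 on positive arrays 1 to 3, against 184, 108 and 54.4 on negative arrays 1 to 3. Every positive value exceeded the highest negative value by a wide margin. Cenph was 8.29-fold higher, a log2 difference of 3.05 with an SE of 0.47 (adjusted p = 0.0243 by limma). Within numbers it differed by 2.65, 2.59 and 3.91. Cenpi (probe set 1436723_at) was at 323, 241 and 154 on positive arrays, against 55.1, 19.8 and 12.5 on negative arrays, where arrays 2 and 3 lay below the array medians of 30.5 to 32.7. Its log2 difference was 3.26 with an SE of 0.58 (adjusted p = 0.0327), and the fold of 9.59 compares it with a signal near background. Cenpk was at 804, 569 and 477 on positive arrays, against 217, 56.9 and 17.4 on negative arrays. Its groups were apart and its log2 difference of 3.33 was larger than that of Cenph, but negative arrays spread over a 12.5-fold range, and it did not pass (SE 0.87, adjusted p = 0.0823, and 0.0463 with the block). Both other Cenpk probe sets, which averaged below the array medians, passed, at log2 differences of 2.45 and 1.13 (adjusted p = 0.01003 and 0.0419 among the 34945 named probe sets). Cenpm ranged from 410.02 to 717 on positive and 79.5 to 283 on negative arrays and differed by 1.98 (adjusted p = 0.0856, and 0.02998 with the block).

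CENP-L and CENP-N form the part of the CCAN that binds the CENP-A nucleosome. Cenpl differed by 1.52 (adjusted p = 0.0713, and 0.0384 with the block), with positive arrays at 466 to 630.2 and negative arrays at 135 to 324. Cenpn differed by 1.96 (adjusted p = 0.122, and 0.0391 with the block), with positive arrays at 213 to 452 and negative arrays at 31.4 to 149. Both genes had separated groups. Cenpo, Cenpp and Cenpq encode subunits of the CENP-OPQUR complex. Cenpo (probe set 1418541_at) was at 539, 403 and 368 on positive arrays, against 199, 178 and 113 on negative arrays. Its spread was small in both groups, and its log2 difference of 1.44 (SE 0.26) passed at an adjusted p of 0.0356, though the difference was the smallest of the 9. Another Cenpo probe set of like brightness gave 1.89 (adjusted p = 0.02096 among named probe sets), and the 4 dim others gave -0.55 to 0.61. With all 6 probe sets averaged, Cenpo no longer passed (log2 difference 0.57, adjusted p = 0.123). Cenpp, at 2738 to 4326 on positive and 506 to 1803 on negative arrays, differed by 1.95 (adjusted p = 0.0754, and 0.0335 with the block). Cenpq was at 2672, 2587 and 2565 on positive arrays, against 2607, 1764 and 1155 on negative arrays. The positive arrays and negative array 1 were at the same level in Cenpq, so the groups overlapped (log2 difference 0.58, 95% interval -0.14 to 1.30).

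Cenpc1 and Cenpt encode the proteins that carry the outer kinetochore on the CCAN. Cenpc1 differed by 0.96 (adjusted p = 0.128), with positive arrays at 332 to 471 and negative arrays at 160.4 to 319.9. Cenpt was at 128, 218 and 93.5 on positive arrays, against 74.9, 93.8 and 95.3 on negative arrays. Positive arrays 1 and 2 lay above every negative array and positive array 3 within their range, and the log2 difference of 0.65 had a 95% interval of -0.13 to 1.43.

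In the KMN network none of the 8 genes passed, against 4.62% of all genes, although their median log2 difference was 2.10. With the block 5 rose, against 5.75% of all genes. NDC80, NUF2, SPC24 and SPC25 form the rod that grips the microtubule. Spc24 ranged from 1449.9 to 2486 on positive and 121 to 802 on negative arrays, a log2 difference of 2.71 with an SE of 0.69 (adjusted p = 0.0762, and 0.0385 with the block). Ndc80 came closest to the threshold, with 381 to 597 on positive and 102 to 253 on negative arrays and a log2 difference of 1.79 (SE 0.39, adjusted p = 0.0538, and 0.03204 with the block). Nuf2, at 1094 to 1705 on positive and 171 to 677 on negative arrays, differed by 2.03 (adjusted p = 0.07398, and 0.0356 with the block). Spc25 was the only gene with a log2 difference over 1 whose groups overlapped. Negative array 1 was at 943, above positive array 3 at 876, while negative arrays 2 and 3 were at 151 and 86.7 (log2 difference 2.41, SE 0.88, adjusted p = 0.1799).

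MIS12, DSN1 and NSL1 are subunits of the MIS12 complex, which links the NDC80 rod to the CCAN. Dsn1 differed by 1.98 (adjusted p = 0.0741, and 0.0262 with the block), and its differences within numbers were nearly equal, at 1.91, 1.97 and 2.05. Nsl1 had positive arrays at 1204 to 1313, a narrow range, and negative arrays at 158 to 638 (log2 difference 2.17, adjusted p = 0.06200). Mis12 had a smaller log2 difference than these partners. It was at 517, 495 and 579 on positive arrays, against 291, 346 and 609 on negative arrays, so negative array 3 held the highest value of all 6. Its log2 difference was 0.43 with a 95% interval of -0.27 to 1.12. That interval overlapped those of Dsn1 (0.78 to 3.18) and Nsl1 (0.94 to 3.39), and the difference between genes was not tested. Knl1 (Casc5 in the list), the scaffold on which BUB proteins gather, ranged from 546 to 1389 on positive and 45.4 to 438 on negative arrays and differed by 2.57 (adjusted p = 0.145, and 0.0399 with the block). A second Knl1 probe set differed by 2.62 (adjusted p = 0.0277 among named probe sets).

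**Figure D2:**
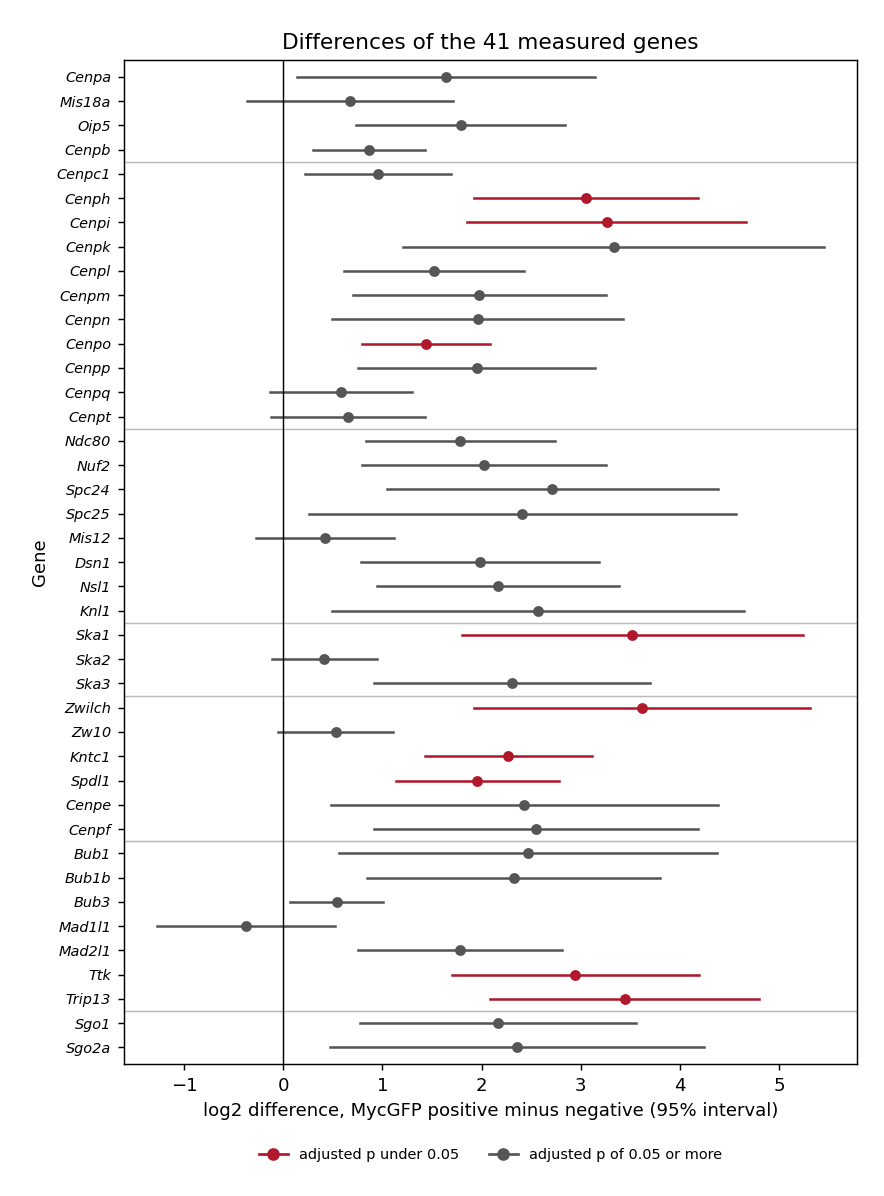
Log2 differences, MycGFP positive minus negative, of the 41 genes with 95% intervals from limma; red marks an adjusted p under 0.05 and grey lines divide the complexes in the order of the map by array. Zwilch (3.62), Ska1 (3.52) and Trip13 (3.44) lie farthest right, and Mad1l1 (-0.37) alone lies left of 0.

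The SKA complex keeps the kinetochore on a shrinking microtubule end. Ska1 (probe set 1450496_a_at) was at 313, 283 and 220.02 on positive arrays, against 72.3, 18.4 and 9.72 on negative arrays. Negative arrays 2 and 3 lay below the array medians, so the 11.5-fold difference (log2 3.52, SE 0.71, adjusted p = 0.0441) is set against a signal near background. Another Ska1 probe set differed by 1.48 (adjusted p = 0.0267 among named probe sets), and a dim one by -0.07. The former is of the kind that may cross-hybridise, and its negative arrays 2 and 3 also lay below the array medians. Ska3 ranged from 221 to 309.7 on positive and 28.9 to 129 on negative arrays and differed by 2.30 (adjusted p = 0.0729, and 0.0429 with the block). Ska2 was at 4571, 3891 and 3195 on positive arrays, against 3703, 2509 and 2579.99 on negative arrays. Its groups overlapped, and its log2 difference of 0.41 had a 95% interval of -0.12 to 0.95.

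ROD (the product of Kntc1), ZWILCH and ZW10 form the RZZ complex, the base of the fibrous corona that brings dynein and checkpoint proteins to unattached kinetochores. Zwilch (probe set 1416757_at) had the largest difference of the 41. It was at 1027, 2702 and 663 on positive arrays, against 229, 75.9 and 57.5 on negative arrays. Positive array 2 was far above positive arrays 1 and 3, and the spread was as wide among positive as among negative arrays. Zwilch was 12.3-fold higher (log2 difference 3.62, SE 0.70, adjusted p = 0.0397), and its call was lost with log2 of intensity plus 16 (adjusted p = 0.0574). Kntc1 (probe set 1435575_at) was at 546, 474 and 434 on positive arrays, against 173, 79.5 and 72.5 on negative arrays. The positive arrays of Kntc1 were close together, and its log2 difference of 2.27 had an SE of 0.35 (adjusted p = 0.0243). Zw10, whose product also serves membrane traffic, was at 598, 458 and 333 on positive arrays, against 342, 324 and 273 on negative arrays. Positive array 3 lay below negative array 1 in Zw10, and the log2 difference of 0.53 had a 95% interval of -0.05 to 1.11. Dimmer Zw10 probe sets differed by -0.79, 0.13 and 0.44, none of them called. That at -0.79 had every negative array above every positive array and is of the kind that may cross-hybridise. The interval of Zw10 ended below those of Zwilch and Kntc1 began, although the difference between these genes was not tested.

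Spdl1, which encodes the Spindly adaptor that couples dynein to the RZZ complex, was at 254, 163 and 125 on positive arrays, against 59.6, 46.1 and 32.1 on negative arrays (probe set 1424971_at). It differed by 2.09, 1.82 and 1.96 within numbers, a similar size in each, and by 1.96 in all (SE 0.34, adjusted p = 0.0315). Cenpe, a kinesin that carries chromosomes to the spindle equator, was at 459, 455 and 501 on positive arrays, against 329, 59.7 and 33.9 on negative arrays. In Cenpe negative array 1 was near the positive arrays and the others far below, so its log2 difference of 2.43 had an SE of 0.80 (adjusted p = 0.142, and 0.0163 without negative array 1). A second Cenpe probe set, with less spread, differed by 2.25 (adjusted p = 0.0246 among named probe sets). Cenpf, a large coiled-coil protein gene of the corona, ranged from 224 to 547 on positive and 29.4 to 145 on negative arrays and differed by 2.55 (adjusted p = 0.0841, and 0.0281 with the block).

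Among the 7 checkpoint genes 2 rose, against 4.62% of all genes, and 4 rose with the block, against 5.75%. TTK (MPS1) is the kinase that starts the signal. Ttk (probe set 1449171_at) was at 436, 372 and 306 on positive arrays, against 98.5, 47.5 and 23.2 on negative arrays, of which array 3 lay below the array median. It was 7.71-fold higher (log2 difference 2.95, SE 0.51, adjusted p = 0.0319). A second, dimmer Ttk probe set differed by 1.62 and did not pass (adjusted p = 0.0788 among named probe sets). TRIP13 is the ATPase that turns MAD2 back to its inactive shape. Trip13 (probe set 1429295_s_at) was at 825, 1348 and 461 on positive arrays, against 144, 64.02 and 43.2 on negative arrays. As in Zwilch, positive array 2 was the highest. Trip13 was 10.9-fold higher (log2 difference 3.44, SE 0.56, adjusted p = 0.0277), and a second probe set gave 3.08 (adjusted p = 0.0175 among named probe sets).

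Bub1, a kinase gene, and Bub1b, which encodes BUBR1 of the mitotic checkpoint complex, both had separated groups and did not pass with the probe sets used. Bub1 was at 2102, 1335 and 1044 on positive arrays, against 911, 156 and 120.2 on negative arrays, with a log2 difference of 2.47 (adjusted p = 0.1300, and 0.0496 with the block). A second Bub1 probe set passed at a log2 difference of 1.59 (adjusted p = 0.0154 among named probe sets). It lay below the array median on every array. Bub1b ranged from 848 to 1041 on positive and 83.8 to 477 on negative arrays and differed by 2.32 (adjusted p = 0.0819). Mad2l1, which encodes the MAD2 that inhibits CDC20, differed by 1.78 (adjusted p = 0.06598, and 0.0295 with the block), with positive arrays at 1791 to 3152 and negative arrays at 476 to 1239. Bub3, the WD40 partner of BUB1 and BUBR1, was at 4176, 3031 and 2714 on positive arrays, against 2439, 2079.6 and 2210.2 on negative arrays. The groups of Bub3 were just separated, at a log2 difference of 0.54 (95% interval 0.07 to 1.01, adjusted p = 0.172). Of its 4 dimmer probe sets, 1 differed by 0.96 and 3 by -0.51 to -0.13, none of them called. Mad1l1, which encodes the MAD1 that anchors MAD2, was the only gene with a lower mean in positive cells. It was at 129, 141 and 145 on positive arrays, against 240.4, 243 and 97.96 on negative arrays. Negative arrays 1 and 2 were higher than every positive array and negative array 3 was lower than all of them, so the log2 difference of -0.37 had a 95% interval of -1.27 to 0.52. Without negative array 3, Mad1l1 was called lower (log2 difference -0.81, adjusted p = 0.0456).

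The shugoshins shield centromeric cohesin until anaphase. Sgo1 (Sgol1 in the list) ranged from 628 to 979 on positive and 85.2 to 408 on negative arrays and differed by 2.17 (adjusted p = 0.08403, and 0.0416 with the block). Sgo2a (Sgol2 in the list) was at 1932, 2581 and 1525 on positive arrays, against 1225, 349 and 133 on negative arrays. The negative arrays of Sgo2a spread over a 9.24-fold range, and its log2 difference of 2.36 did not pass (SE 0.78, adjusted p = 0.141, and 0.0284 without negative array 1).

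These genes were more widely spread on negative than on positive arrays. The SD of log2 intensity was larger among negative than among positive arrays for 36 of the 41 genes (87.8%), against 57% of all genes. Its median was 0.35 among positive and 0.97 among negative arrays, where all genes had 0.20 and 0.23. Averaged over the 41 genes on the scale of the negative mean, the positive arrays 1 to 3 stood at 2.25, 1.88 and 1.65 and the negative arrays 1 to 3 at 0.97, -0.25 and -0.73. Negative array 1 was the highest negative array for 37 genes (90.2%), against 36.6% of all genes, and negative array 3 the lowest for 31 (75.6%), against 27.6%. Positive array 1 was the highest positive array for 33 (80.5%), against 44.4%. These counts describe the arrays and were not tested. Without negative array 1 the median SD among negative arrays was 0.37.

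**Figure D3:**
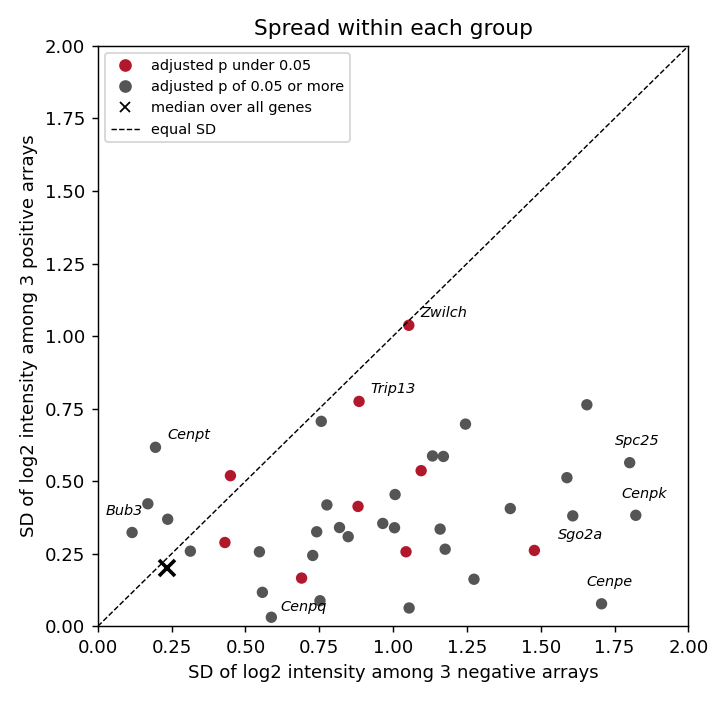
SD of log2 intensity among the 3 positive arrays (vertical) and the 3 negative arrays (horizontal) for each of the 41 genes, with the median over all genes as a cross. Cenpk (1.82), Spc25 (1.80) and Cenpe (1.71) had the widest spread among negative arrays, and the red points are the 9 genes that passed.

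Within array numbers, the positive array was above the negative array of the same number in all 3 numbers for 38 genes (92.7%), against 25.9% of all genes. The exceptions were Cenpt, Mis12 and Mad1l1. The median difference over the 41 genes was 1.26 in number 1, 2.36 in number 2 and 2.62 in number 3, so it was least in the number whose negative array was highest. All complexes but CENP-A with its deposition factors followed this order: in the KMN network the medians were 1.28, 2.37 and 2.84 and in the checkpoint 1.21, 2.47 and 3.12.

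**Figure D4:**
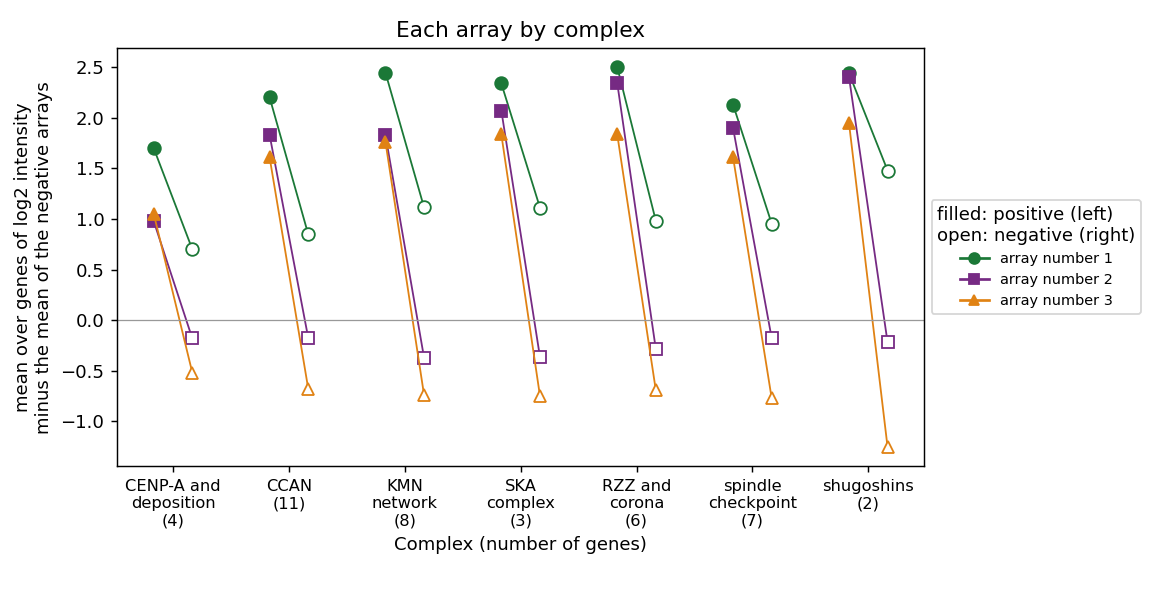
Mean over the genes of each complex of log2 intensity minus the mean of the negative arrays, with positive arrays filled (left), negative arrays open (right) and a line joining arrays of one number. In each complex the negative array 1 stood above the negative arrays 2 and 3, at 0.70 to 1.48.

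A log2 difference under 1 was found in 10 genes: Mis18a, Cenpb, Cenpc1, Cenpq, Cenpt, Mis12, Ska2, Zw10, Bub3 and Mad1l1. They stand in 6 of the 7 complexes, beside partners with differences over 2 in 5 of these. Among the 31 others (7.9% of all genes were over 1), the differences ran from 1.44 in Cenpo to 3.62 in Zwilch, 20 exceeded 2, against 1.43% of all genes, and 6 exceeded 3, against 0.159%. Whether genes that differed little also differed from their partners was not tested.

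Other genes of the same machinery, listed by function, gave the following counts. Of all genes 4.62% rose and 1.51% fell, and 5.75% rose with the block. Before adjustment 14.7% of all genes passed 0.05 as higher and 7.35% as lower. Of 16 other centromere and kinetochore genes 5 rose and none fell, with a median log2 difference of 1.10, and 9 rose with the block. They were the CCAN genes Cenps at 2.64, Cenpu at 1.74 and Cenpw at 1.93, the microtubule polymerase gene Ckap5 at 1.21 and, named after its values were seen, the histone kinase gene Haspin at 2.16 (log2 differences). Of 10 genes of the chromosomal passenger complex and error correction, Psrc1 and Kif18a rose by 2.82 and 3.12 on the log2 scale. Kif18a is a kinesin gene that limits chromosome oscillation. The median of the list was 2.15, and 5 of its genes rose with the block. The passenger complex genes Aurkb, Incenp, Cdca8 and Birc5 differed by 3.09, 2.12, 2.18 and 1.37. They did not pass (limma adjusted p = 0.0620, 0.0739, 0.0750 and 0.180). Of 20 genes of the anaphase-promoting complex and its regulators, the target of the checkpoint, limma called none in either direction at a median of 0.65, while before adjustment 13 passed 0.05 as higher and 0 as lower, and 6 rose with the block. The largest differences were those of its activator Cdc20 at 2.57 (adjusted p = 0.0791) and of separase, Espl1, at 2.40 (adjusted p = 0.0649). Of 10 genes for dynein at the kinetochore, Nudc and Nde1 rose by 1.11 and 0.91 on the log2 scale, and the median log2 difference was -0.11. In this list 7 genes had a lower mean in positive cells. Before adjustment 2 passed 0.05 as higher and 2 as lower. The latter were Ndel1 at -0.67 (limma adjusted p = 0.0694) and Dync1i2 at -0.54 (adjusted p = 0.188).

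For comparison, 6 of 25 genes of mitotic kinases, kinesins and cytokinesis rose, 13 with the block, at a median of 2.22. Of all genes 4.62% rose, and 5.75% with the block. Foxm1, Kif20b, Anln and Kif23 rose by 1.65, 2.31, 3.09 and 1.97 on the log2 scale. Of 28 genes of origin licensing and the replication fork 15 rose, 19 with the block, at a median of 2.02, among them Mcm6, Cdt1, Rfc3 and Mcm5 at 2.56, 1.94, 2.47 and 2.40 (log2 differences). The replication list had a median SD among negative arrays of 0.76, against 0.97 for the kinetochore genes and 1.05 for the mitotic list. Negative array 1 was the highest negative array for 96% of the mitotic and 82.1% of the replication list, beside 90.2% of the kinetochore genes. Negative array 3 was the lowest for 88% and 75%, beside 75.6%. Whether the lists differ in these counts was not tested.

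Myc, whose reporter the sort used, was at 2628, 3390.5 and 2274 on positive arrays, against 801, 1135 and 1303 on negative arrays (log2 difference 1.37, limma adjusted p = 0.0329). The T lineage genes Cd3d, Cd3e, Cd3g, Cd2, Cd28, Il2ra (CD25) and Notch1 were bright on every array and none was called, with summed intensities of 46967 to 57402 on positive and 55685 to 64965 on negative arrays. Summed intensities of other cell types were low and overlapped for B cells (6 genes, 130.2 to 488 on positive and 224 to 765 on negative arrays), myeloid cells (7 genes, 192 to 329 and 228 to 1194, highest on negative array 2) and erythroid cells (6 genes, 160 to 402 and 93.8 to 452). Those of NK cells (4 genes) were 42.2 to 120 on positive and 124 to 340 on negative arrays. The NK sum followed a single gene, Klrd1 (log2 difference -2.50, adjusted p = 0.096), and Ncr1, Klra1 and Eomes lay below the array medians on all 6 arrays. No gene of these lists was called by limma, but with the block 1 B cell gene and 1 NK gene were lower, where 1.95% of all genes were. Their part in the kinetochore results was not tested.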

How the data were processed

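RNA of sorted leukaemia cells was measured on 6 Affymetrix arrays, 5 ng per sample amplified with the Ovation system, per the labels' protocols. The authors deposited linear intensity values made with RMA, per the submitters' processing notes; its version, and any detection calls, are not given in the sources used here. Since RMA equalises the arrays, total RNA per cell is not measured, and a signal near the array median (30.5 to 32.7) may be background.

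Log2 of each intensity was taken. Gene names came from GEO's platform annotation, updated by Entrez identifier through the RefSeq table of GRCm38.p6: of 45101, 34945 had 1 symbol, 932 several and 9160 none, 64 were controls, and 34741 matched. Each of 18193 genes was represented by its brightest probe set (highest mean over 6 arrays). The 41 genes had 79 probe sets; of the 38 not used, 9 differed with the opposite sign, none of them called. Groups came from the sample titles. limma 3.58.1 in R 4.3.3 (lmFit, eBayes, 2 groups, no covariate) gave two-sided p-values with Benjamini-Hochberg adjustment over all genes, threshold 0.05, with 4 residual and 2.17 prior degrees of freedom. Differences are MycGFP positive minus negative with moderated SE. The fit was also run on simulated arrays with noise drawn separately for each gene. Shifts shared by many genes on an array were not covered there. Precision is limited by 3 arrays per group.

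Both groups are numbered 1 to 3. Deviations from the group means correlated across genes at 0.38, 0.21 and 0.39 for arrays of one number and at -0.32 to -0.03 for others. Deviations within a group cancel out, so the negative values are not separate support. From the positive values the numbers were taken to pair the arrays, although no label says so. This pairing came from the same data and was not tested, and the block is given where it changes a call. The p-values reflect only how far these sorted samples vary. The genes and lists were chosen with earlier results of these data known. Values on every array are given for genes that passed with separated groups, the 6 largest and 8 smallest differences, and a few others chosen after their values were seen (Cenpe, Bub1, Sgo2a); the rest by range. Of other lists, up to 4 called genes with the smallest adjusted p are named, or the 2 largest differences. Further genes of these lists were named after their values were seen (Aurkb, Incenp, Cdca8, Birc5, Ndel1, Dync1i2). Alternatives were the block, arrays left out, all probe sets averaged, no cross-hybridising probe sets, brighter genes alone, median centring, an offset of 16, a trended and robust variance, and array weights.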

Additional observations from a re-analysis of the deposited data

How the results depend on the processing

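All 41 genes kept the sign of their difference under the 17 alternatives. Higher calls among them numbered 25 with the array number as a replicate block (paired analysis), 19 among genes above the median level and 15 with array weights, against 9, and 7 to 11 under the others that kept all arrays. Leaving out arrays gave 0 to 30 higher and 0 to 1 lower, and a median SD among negative arrays of 0.369 to 1.23, against 0.965. With arrays left out, 33 to 38 genes were separated higher and 0 to 1 lower. Leaving out arrays cannot lower the number of separated genes, and the share separated over all genes was not counted there. Over all genes 840 were higher and 275 lower; without arrays it was 0 to 862 higher and 0 to 238 lower, and with each array centred on its median 502 and 381, which put the all-gene median at -0.14 in place of 0.01 and ended the calls of Cenpo and Ska1 (adjusted p = 0.0536 and 0.0527). Of the 56 other genes of the machinery 9 were higher and 0 lower; 22 were higher with the replicate block, 14 among genes above the median level, 5 higher and 1 lower after centring, and 1 lower with all probe sets averaged, against 0 to 18 higher without arrays. The share of all genes called higher was 4.62% in the main fit and 5.75% with the replicate block. It was 11.2% among genes above the median level and 2.76% after centring. The median log2 difference of the 41 genes stayed between 1.70 and 2.55. Averaging probe sets ended the call of Cenpo, and the offset of 16 that of Zwilch. The replicate block ended none of the 9 calls. The causes were not tested. Levels near background limit the folds of Cenpi, Cenpk, Cenpn, Ska1, Ska3, Spdl1, Cenpf and Ttk, each of which lay below the array median on at least 1 negative array.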
